A study of Mus musculus with 9 samples.

Results

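The 10 genes Cdh1, Epcam, Dsp, Cldn3, Cldn4, Cldn7, Ocln, Esrp1, Grhl2 and Elf3 encode proteins that hold epithelial cells together, or regulators of the epithelial programme. They were taken by name from a table of 23799 genes, and each name matched 1 row. Epithelial cells are joined by adherens junctions, desmosomes and tight junctions. E-cadherin, the product of Cdh1, binds neighbouring cells at adherens junctions, and desmoplakin (Dsp) ties desmosomes to keratin filaments. Epcam is a surface adhesion molecule. Claudins (Cldn3, Cldn4, Cldn7) and occludin (Ocln) span the membrane at tight junctions, which seal the space between cells. Esrp1 directs epithelial splicing of transcripts, and Grhl2 and Elf3 are epithelial transcription factors. Carcinoma cells can lose these genes when they take on mesenchymal traits, and adenocarcinomas of the pancreas and breast often keep them.

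RNA of mouse tumour cells, sorted by fluorescence, was sequenced in 9 libraries of 5 groups. For pancreatic ductal adenocarcinoma (PDAC), cells positive for YFP came from 1 lung metastasis (number 1), 2 liver metastases (numbers 1 and 5) and 2 primary tumours (numbers 1 and 5). Mice of number 1 carried SIRT6F/F, p48-Cre, p53F/+, KrasL/+ and ROSA-LSL-YFP and were 25.67 weeks old, and those of number 5 carried the same alleles without SIRT6F/F and were 28.95 weeks old. Age, the floxed SIRT6 alleles and the number therefore cannot be told apart. The p48-Cre transgene is active in pancreatic progenitors and in the lineages they give rise to, where it also switches on the YFP reporter used for sorting. For breast cancer (BC), cells positive for GFP came, at 28 days, from tumours of 4T1-eGFP, a mouse mammary carcinoma line that carries the label: 2 lung metastases (numbers 4 and 6) and 2 primary tumours (numbers 1 and 5). Tumours from a single transplanted line do not sample different tumour origins.

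The deposited values were RPKM, a read count divided by gene length and by a total of reads, so levels of different genes can be compared per length. Between 21300000 reads (PDAC lung metastasis) and 127900000 reads (BC primary 5) were estimated to lie on genes, and 1 read was worth 0.00079 to 0.0622 RPKM over the 10 genes and 9 libraries. The total of reads implied by the value of 1 read was 12800000 and 131000000 in these libraries. The first is below the estimate on genes, so all read estimates are approximate. The PDAC lung metastasis, PDAC primary 5 and BC lung metastasis 6 listed 9530, 10410 and 10938 genes above 0, against 12144 to 20478 in the other libraries. Tbp, a transcription factor that cells generally need, reached only 0.0584 RPKM in the PDAC lung metastasis and 0.138 RPKM in PDAC primary 5, so genes without reads are called listed at 0. Sdha was at 0.0247 RPKM in PDAC primary 5 and at 8.26 to 79.7 RPKM in the other libraries. Over all 23799 genes, which are not independent replicates, log2 values of same-group libraries correlated at 0.822 in PDAC liver metastases, 0.657 in PDAC primaries, 0.854 in BC lung metastases and 0.970 in BC primaries. Simple epithelial keratins, which define epithelium, were above 0 in all 9 libraries (4 of 4 genes). Their summed level was 108 RPKM in the PDAC lung metastasis, 6535 and 199 RPKM in PDAC liver metastases 1 and 5, 2161 and 12912 RPKM in PDAC primaries 1 and 5, 3977 and 5662 RPKM in the BC lung metastases 4 and 6, and 5400 and 2678 RPKM in BC primaries 1 and 5. The PDAC lung metastasis and PDAC liver metastasis 5 thus had the lowest keratin levels. In such sorted bulk libraries, fewer epithelial cells and less RNA of a gene per cell cannot be told apart.

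The promoters of the 4 genes with the highest levels are shown because these genes were high together in one library, as described below. RefSeq promoter windows (GRCm38.p6, 250 bases before to 50 after the start site) were found for 7 of the 10 genes. The authors' values were made on mm9, and no coordinate below refers to that build. Capitals mark CAGGTG or its reverse complement CACCTG, the E-box letters bound by repressors of the SNAI and ZEB families.
Epcam, chr17:87635729-87636028, plus strand: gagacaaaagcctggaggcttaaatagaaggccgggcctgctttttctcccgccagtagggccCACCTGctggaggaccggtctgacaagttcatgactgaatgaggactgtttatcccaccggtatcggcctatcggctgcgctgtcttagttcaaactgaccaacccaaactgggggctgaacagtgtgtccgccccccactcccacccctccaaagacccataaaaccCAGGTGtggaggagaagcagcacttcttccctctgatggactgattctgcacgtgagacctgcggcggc
Cldn3, chr5:134985964-134986263, plus strand: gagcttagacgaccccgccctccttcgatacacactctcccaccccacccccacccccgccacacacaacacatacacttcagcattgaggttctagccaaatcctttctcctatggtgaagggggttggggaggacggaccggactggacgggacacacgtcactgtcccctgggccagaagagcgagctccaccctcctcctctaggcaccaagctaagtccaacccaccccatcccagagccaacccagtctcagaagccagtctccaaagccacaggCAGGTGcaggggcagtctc
Cldn4, chr5:134946885-134947184, minus strand: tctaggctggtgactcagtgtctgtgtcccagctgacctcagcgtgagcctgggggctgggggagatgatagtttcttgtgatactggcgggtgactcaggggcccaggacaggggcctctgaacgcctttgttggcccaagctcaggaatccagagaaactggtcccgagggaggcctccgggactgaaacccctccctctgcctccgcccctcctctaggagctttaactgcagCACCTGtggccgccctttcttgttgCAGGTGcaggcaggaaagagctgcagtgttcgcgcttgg
Cldn7, second of its windows, chr11:69965171-69965470, plus strand: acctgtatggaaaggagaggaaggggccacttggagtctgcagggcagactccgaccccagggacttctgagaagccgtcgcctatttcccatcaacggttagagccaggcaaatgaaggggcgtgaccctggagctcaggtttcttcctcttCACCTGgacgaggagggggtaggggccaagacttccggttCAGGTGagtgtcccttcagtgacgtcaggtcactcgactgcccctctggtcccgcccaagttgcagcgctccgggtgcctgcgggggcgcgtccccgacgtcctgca

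Epcam, Cldn4 and the second Cldn7 window held the letters at 2 places each, and Cldn3 at 1. In Cldn4 the first bases of these motifs lay 14 bases before the start site and at base 12 after it. All 7 genes with a window held the motif at least once (8 of their 9 windows), against 20.2% of 32851 promoter windows and 22.6% of 27025 genes. The other genes with it were Ocln, Elf3 and Dsp. AACCGGTT, the letters that Grainyhead-like factors such as Grhl2 bind, was in 0 of the 9 windows and in 0.146% of all windows. The looser form AACNNGTT, which also counts AACCGGTT, was likewise in 0 of the 9, against 4.2% of all windows. Both strands were read, and a match is a description of letters, not of binding.

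The junction genes were abundant in PDAC primary 5 and far lower in every other library. The level of Cldn4 was 0.0865 RPKM in the PDAC lung metastasis, 82.7 and 18.0 RPKM in PDAC liver metastases 1 and 5, 5.92 and 1722 RPKM in PDAC primaries 1 and 5, 51.5 and 23.7 RPKM in the BC lung metastases 4 and 6, and 95.1 and 89.3 RPKM in BC primaries 1 and 5. PDAC primary 5 stood 18.1 times above the next library, while PDAC primary 1, from the same group, was the second lowest. Of the 10 genes, 9 had their highest value in PDAC primary 5, as did 16.4% of the 12832 genes that reached 1 RPKM in 2 or more libraries. The ratio to the next library ranged from 3.94 for Dsp to 30.8 for Elf3. Grhl2 was the exception: it was listed at 0 in PDAC primary 5 and was highest in BC primary 5, at 2.62 RPKM. Of tested genes 4222 to 9659 bases long, a range that includes the length of Grhl2, 34.6% were at 0 in PDAC primary 5. Together the 10 genes made up 1.07% of the summed RPKM in PDAC primary 5 and 0.00931 to 0.109% elsewhere. PDAC primary 5 also had the lowest level of leukocyte and erythroid genes among PDAC libraries: the 7 leukocyte genes summed to 467 RPKM there and to 18816 to 157008 RPKM in the other 4, and the 5 erythroid genes summed to 276 RPKM there and to 61278 to 359931 RPKM in the other 4. The 5 endothelial genes were listed at 0 there. The part of these cells in the result was not tested.

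**Figure D1:**
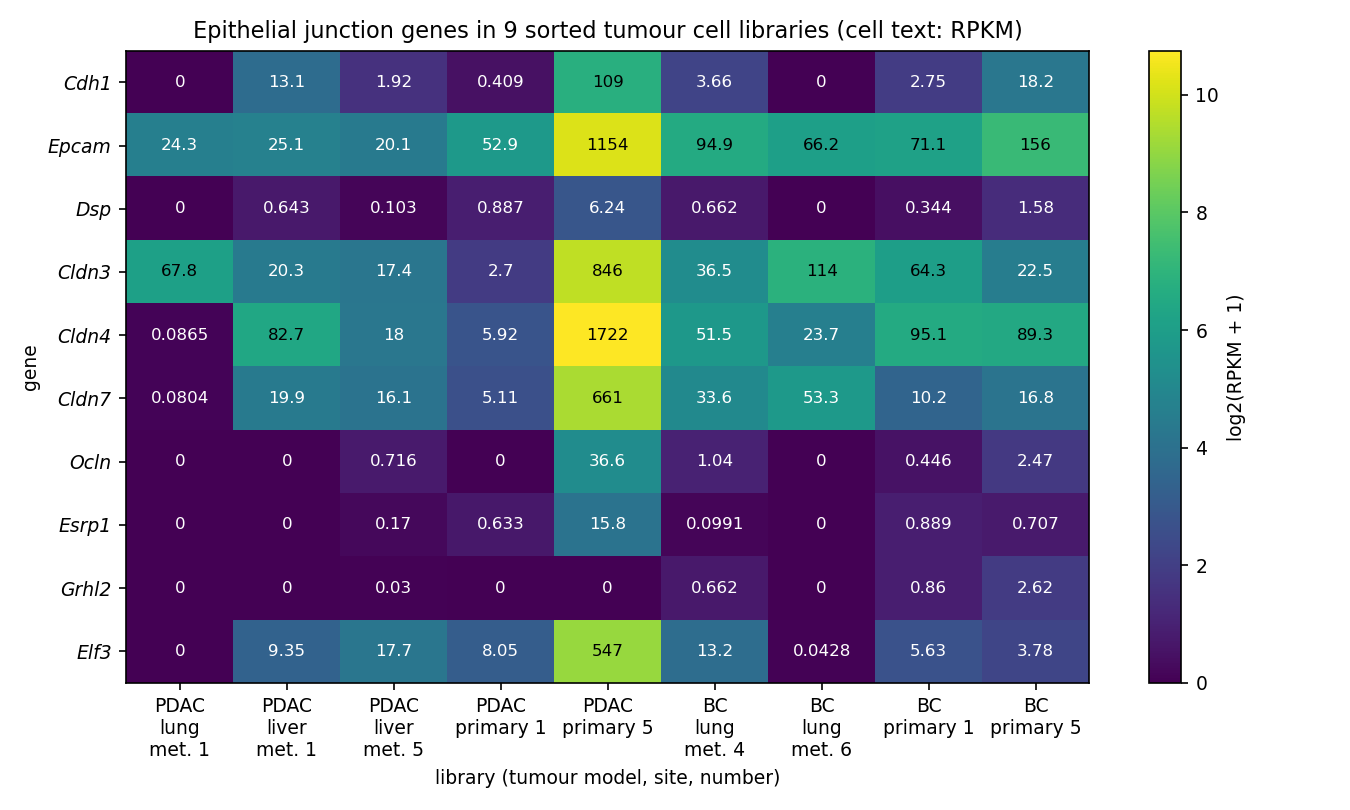
Level of each of the 10 genes (rows) in each of the 9 libraries (columns); colour shows log2(RPKM + 1) and the number in each cell is RPKM. PDAC primary 5 has the brightest cell in 9 of 10 rows, and the PDAC lung metastasis lists 6 genes at 0.

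Among the adhesion genes, Epcam was detected most evenly, with no value below 20.1 RPKM. Its level was 24.3 RPKM in the PDAC lung metastasis, 25.1 and 20.1 RPKM in PDAC liver metastases 1 and 5, 52.9 and 1154 RPKM in PDAC primaries 1 and 5, 94.9 and 66.2 RPKM in the BC lung metastases 4 and 6, and 71.1 and 156 RPKM in BC primaries 1 and 5. Cdh1 was listed at 0 in the PDAC lung metastasis, at 13.1 and 1.92 RPKM in PDAC liver metastases 1 and 5, and at 0.409 and 109 RPKM in PDAC primaries 1 and 5. In the BC model its level was 3.66 RPKM in lung metastasis 4, it was listed at 0 in lung metastasis 6, and in primaries 1 and 5 it was at 2.75 and 18.2 RPKM. E-cadherin transcripts thus varied widely within each group of 2 libraries, and both primaries and metastases were among the low libraries. Dsp was at most 6.24 RPKM in any library. Cldn3 and Cldn4 were not ordered alike: in the PDAC lung metastasis Cldn3 was at 67.8 RPKM, while Cldn4 and Cldn7 were at 0.0865 and 0.0804 RPKM, an estimated 2 reads each.

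Of the 3 regulators Elf3 was the most abundant in 8 libraries, and all 3 were listed at 0 in the PDAC lung metastasis. Elf3 reached 547 RPKM in PDAC primary 5 and 0 to 17.7 RPKM in the other 8 libraries. Esrp1 was at 15.8 RPKM in PDAC primary 5 and below 0.9 RPKM elsewhere. Grhl2 was above 0 in PDAC liver metastasis 5 (0.03 RPKM, an estimated 9.4 reads) and in 3 BC libraries, lung metastasis 4 (0.662 RPKM) and primaries 1 and 5 (0.86 and 2.62 RPKM). It was listed at 0 in the other 5 libraries. The 5 genes with the longest exonic sequence, Ocln, Cdh1, Esrp1, Grhl2 and Dsp (4222 to 9659 bases), were all listed at 0 in BC lung metastasis 6 and in the PDAC lung metastasis. Of 4650 tested genes in that length range, 31.3% and 36.5% were at 0 in these libraries, against 30.3% and 33.9% of 1626 genes in the range of the 5 shorter members (1259 to 2217 bases), of which only Elf3, in the PDAC lung metastasis, was at 0. Esrp1 and Grhl2 did not reach 1 RPKM in 2 libraries, so 8 of the 10 genes were tested. Exons of Cldn3 and Grhl2 overlap opposite-strand genes of the table, Wbscr25 and Gm16136, and the library kit does not mark strand, so shared reads cannot be assigned. Wbscr25 was at 6.92 RPKM in PDAC primary 5 and at most 0.156 RPKM elsewhere, and Gm16136 was above 0 in the same 3 BC libraries as Grhl2, at 0.156 to 0.707 RPKM.

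PDAC liver metastases were set against PDAC primary tumours to ask how the junction genes differ at the distant site. None of the 8 tested genes was called by limma, and 1 of 12832 genes was (0.00779%; 6.4% at an unadjusted p under 0.05). The largest difference of the 8 was that of Epcam (unadjusted p = 0.0162), at 25.1 and 20.1 RPKM in liver metastases 1 and 5, against 52.9 and 1154 RPKM in primaries 1 and 5. These groups did not overlap, and the log2 difference was -3.41 ± 1.19 (SE, n = 2 against 2; limma adjusted p = 0.567). Elf3 was at 9.35 and 17.7 RPKM in liver metastases, against 8.05 and 547 RPKM in primaries (-2.34 ± 1.86; limma adjusted p = 0.889). Ocln was listed at 0 and at 0.716 RPKM in liver metastases, against listed at 0 and 36.6 RPKM in primaries (-2.23 ± 1.41; limma adjusted p = 0.868). The primaries differed from each other by 4.42 (Epcam), 5.92 (Elf3) and 5.23 (Ocln) on the log2 scale, more than the groups did. The same held for each of the 8 tested genes. The median log2 difference of the 10 genes was -1.62, beside 0.08 over all tested genes. Of the 10, 3 had groups that did not overlap, all lower in liver metastases (Epcam, Esrp1 and Dsp). Esrp1 was not tested. Of the 8 tested members, 2 were lower in this way and 0 higher, beside 10.2% and 15.4% of tested genes.

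The numbers differed: Epcam (-1.05 and -5.77 on the log2 scale in numbers 1 and 5), Esrp1 (-0.71 and -3.85) and Dsp (-0.20 and -2.72) were lower in the liver metastasis in both, while Cdh1, Cldn3, Cldn4, Cldn7 and Elf3 were higher in number 1 and lower in number 5. In number 1, Cdh1 was at 13.1 RPKM in the liver metastasis, against 0.409 RPKM in the primary. Cldn4 was at 82.7 RPKM in the liver metastasis, against 5.92 RPKM in the primary, and Cldn3 at 20.3 RPKM in the liver metastasis, against 2.70 RPKM in the primary. In this number 5 of the 10 genes were higher in the liver metastasis, 3 were lower and 2 were at 0 in both, with a median log2 difference of 0.10, beside -0.14 over all tested genes. In number 5, 9 of the 10 were lower in the liver metastasis and Grhl2 was higher, with a median of -5.05, beside 0.72 over all tested genes. Cldn4 was at 18.0 RPKM there, against 1722 RPKM in its primary. Without PDAC primary 5 the limma differences of Cdh1, Cldn3 and Cldn4 were 2.19, 2.42 and 2.53, those of Cldn7, Ocln and Elf3 were 1.63, 0.39 and 0.62, and none was called. Without PDAC primary 1, the primary group is PDAC primary 5 alone, the library already seen to be highest for 9 of the 10 genes, and its spread is taken from other groups. In that fit 5 of the 8 genes were called lower, Epcam (-5.62; limma adjusted p = 0.0076), Cldn3 (-5.42), Cldn4 (-5.43), Cldn7 (-5.13) and Ocln (-4.84), while limma called 965 genes in all. The direction of Cdh1, Cldn3, Cldn4, Cldn7, Ocln and Elf3 differed with which primary was left out.

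**Figure D2:**
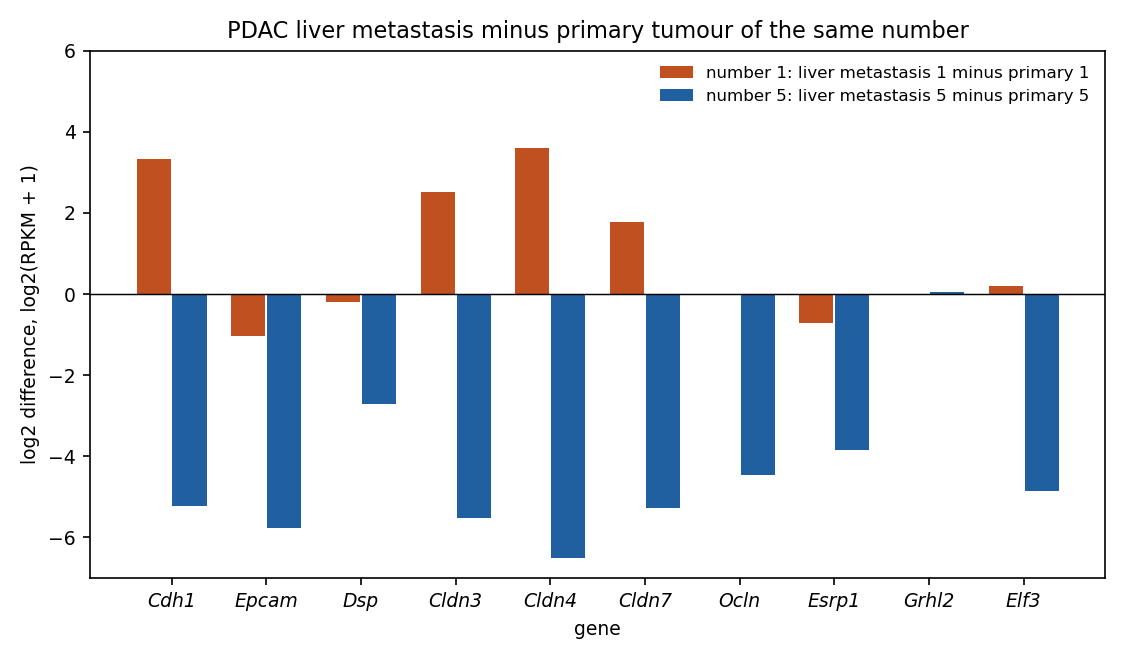
Difference of log2(RPKM + 1) between the PDAC liver metastasis and the PDAC primary tumour of the same number, for number 1 (orange) and number 5 (blue). Bars of Cdh1, Cldn3, Cldn4 and Cldn7 point up in number 1 and down in number 5; Ocln and Grhl2 have no bar in number 1, since both libraries list them at 0.

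These 4 PDAC libraries also differed in keratin level. Krt8 and Krt18, the keratin pair of simple epithelium, summed to 5540 and 162 RPKM in liver metastases 1 and 5, against 1803 and 10006 RPKM in primaries 1 and 5. Per 1000 RPKM of these keratins, Cldn4 was at 14.9 and 111 RPKM in liver metastases 1 and 5, against 3.28 and 172 RPKM in primaries 1 and 5. On the same scale Epcam was at 4.54 and 125 RPKM in liver metastases, against 29.4 and 115 RPKM in primaries. Relative to keratin, liver metastasis and primary of number 5 were thus higher for these genes than those of number 1. On this scale the PDAC lung metastasis, also of number 1, had Epcam at 244 RPKM and Cldn3 at 683 RPKM. Both were the highest of the 9 libraries, over the lowest keratin sum of the 9 (99.3 RPKM). Unscaled, its Epcam was at 24.3 RPKM and its Cldn3 at 67.8 RPKM. In liver metastases and primaries Elf3 followed the same order, with 1.69 and 110 RPKM in liver metastases and 4.47 and 54.6 RPKM in primaries per 1000 RPKM of keratin. Genes of hepatocytes, which form tight junctions of their own, summed to 825 and 2154 RPKM in liver metastases (7 of 7 genes above 0 in each), against 1.91 and 248 RPKM in primaries, where Apoa1 accounted for 245 RPKM of the higher value. Leukocyte genes (7 of 7 above 0 in each) summed to 18816 and 157008 RPKM in liver metastases, against 56129 and 467 RPKM in primaries. The part of these cells in the differences was not tested.

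**Figure D3:**
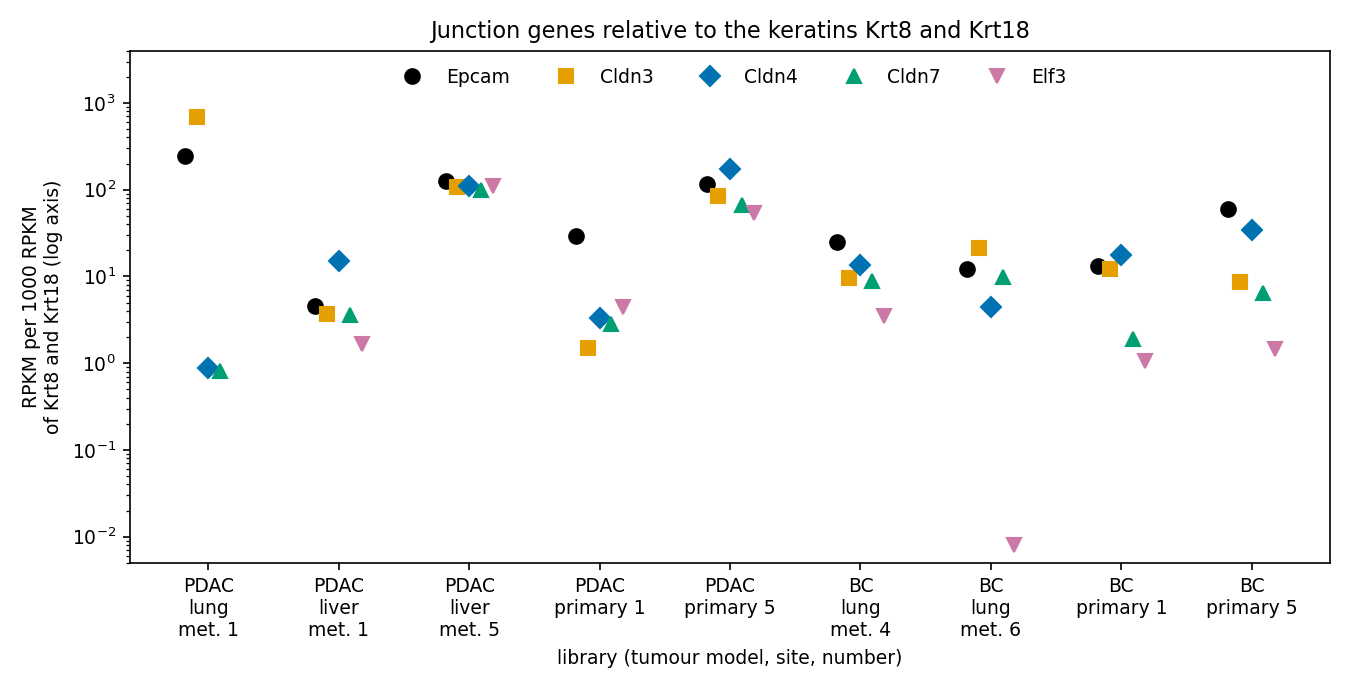
RPKM of 5 genes per 1000 RPKM of Krt8 and Krt18 summed, on a log axis, in each library. PDAC liver metastasis 5 and PDAC primary 5 hold all 5 genes between 54.6 and 172; Elf3 is listed at 0 in the PDAC lung metastasis and has no point there.

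In the single PDAC lung metastasis, Cldn3 and Epcam were at 67.8 and 24.3 RPKM. The other 8 members were listed at 0 or had an estimated 2 reads. Against 52.9 and 1154 RPKM in primaries 1 and 5, Epcam was lower in the lung metastasis (log2 difference -3.31). Cldn4 and Cldn7 were at 0.0865 and 0.0804 RPKM there, against 5.92 and 1722 RPKM (Cldn4) and 5.11 and 661 RPKM (Cldn7) in primaries 1 and 5. Cldn3 was at 67.8 RPKM, which lies between the 2.70 and 846 RPKM of the primaries. The log2 differences were -6.65 ± 2.41 for Cldn4 (SE, n = 1 against 2; limma adjusted p = 0.258), -5.88 ± 2.11 for Cldn7 (limma adjusted p = 0.257) and 0.30 ± 2.36 for Cldn3 (limma adjusted p = 1). This comparison shares the PDAC primaries with the one above, and the fit gives the single library the spread of the other groups. Elf3, listed at 0 in the lung metastasis, against 8.05 and 547 RPKM in the primaries, had a log2 difference of -6.14 ± 2.28 (limma adjusted p = 0.271). None of the 8 genes was called, where 75 of 12832 were (0.584%). An unadjusted p under 0.05 was reached by 4 members (Cldn4, Cldn7, Elf3 and Epcam) and by 13.8% of genes. Of the 10, 7 were below both primaries, and of the 8 tested members 6 were, beside 34.4% of tested genes. None was above both, as 23.9% of tested genes were. Without PDAC primary 1, limma called 6 members lower, among 1504 genes, with PDAC primary 5 as the only primary, and the difference of Cldn3 was -3.62. Without PDAC primary 5 that of Cldn3 was 4.22, and no member was called. Lung epithelial genes summed to 35869 RPKM in this library (5 of 6 above 0), against 2.80 and 174 RPKM in the primaries (3 of 6 above 0 in each). The surfactant gene Sftpc was at 34207 RPKM and Cldn18, a claudin gene of this list, was listed at 0. In primary 5 Cldn18 made up 173 RPKM of the sum, with Sftpc at 0.278 RPKM. Endothelial genes summed to 334 RPKM in the lung metastasis (5 of 5 above 0), with the endothelial claudin gene Cldn5 at 302 RPKM, against 3.69 and 0 RPKM in primaries 1 and 5 (3 of 5 and 0 of 5 above 0). Alveolar epithelium itself makes Epcam and claudins, and the part of these cells in the Cldn3 and Epcam values was not tested.

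In the BC model, the claudins Cldn4 and Cldn7 differed in opposite directions between lung metastases and primary tumours. Cldn7 was at 33.6 and 53.3 RPKM in lung metastases 4 and 6, against 10.2 and 16.8 RPKM in primaries 1 and 5. Cldn4 was at 51.5 and 23.7 RPKM in lung metastases, against 95.1 and 89.3 RPKM in primaries. The groups did not overlap for either gene, with log2 differences of 1.62 ± 1.72 (SE, n = 2 against 2; limma adjusted p = 0.974) for Cldn7 and -1.37 ± 1.97 (limma adjusted p = 0.989) for Cldn4. Neither was called: limma called 0 of 12832 genes (0%). An unadjusted p under 0.05 was reached by 2.07% of genes and by 0 of the 8 members. The standard errors rest on the spread within all groups of 2 libraries, the PDAC ones included. With the 4 BC libraries alone, the standard errors were 0.62 for Cldn7 and 0.60 for Cldn4 (limma adjusted p = 0.629 for both). In that fit limma called 9 genes and no member, and 2 of the 8 members were at an unadjusted p under 0.05, as were 660 of 12656 genes. Leaving out any 1 library gave differences of 1.29 to 1.95 for Cldn7 and -1.91 to -0.83 for Cldn4. Since the groups did not overlap, leaving out 1 library could not change either direction. Of the 10 genes, 1 was higher in both metastases and 3 were lower (Cldn4, Esrp1 and Grhl2). Esrp1 and Grhl2 were not tested. Of the 8 tested members, 1 was higher and 1 lower, beside 15.8% and 27% of tested genes.

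Cldn3 overlapped between the BC groups, at 36.5 and 114 RPKM in lung metastases, against 64.3 and 22.5 RPKM in primaries (0.74 ± 1.93; limma adjusted p = 1). Epcam did too (-0.41 ± 1.19; limma adjusted p = 1). Cdh1 was at 3.66 RPKM and listed at 0 in lung metastases, against 2.75 and 18.2 RPKM in primaries (-1.97 ± 1.92; limma adjusted p = 0.974). Its low value was in metastasis 6 alone, the library that also lists Ocln, Esrp1, Grhl2 and Dsp at 0 and Elf3 at 0.0428 RPKM. In metastasis 4 Elf3 was at 13.2 RPKM, above the 5.63 and 3.78 RPKM of the primaries. The median difference of the 10 genes was -0.60, beside -0.29 over all tested genes. It was -0.16 without lung metastasis 6, -1.03 without lung metastasis 4, -0.29 without primary 5, -0.99 without primary 1 and -1.71 with a pseudocount of 0.1. Lung epithelial genes summed to 28.9 and 25.2 RPKM in lung metastases 4 and 6 (6 of 6 and 3 of 6 above 0), against 0.784 and 0.774 RPKM in primaries. Leukocyte genes summed to 5264 and 4163 RPKM in lung metastases, against 322 and 573 RPKM in primaries. Their part was not tested.

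PDAC primary tumours were set against BC primary tumours to compare the models at the site of origin, with the same PDAC primaries as above. Elf3 was the gene with the largest difference, at 8.05 and 547 RPKM in PDAC primaries, against 5.63 and 3.78 RPKM in BC primaries (log2 3.64 ± 1.86, SE, n = 2 against 2; limma adjusted p = 0.438). Both PDAC values lay above both BC values. Cldn7 overlapped, at 5.11 and 661 RPKM in PDAC primaries, against 10.2 and 16.8 RPKM in BC primaries (2.17 ± 1.72; limma adjusted p = 0.589). None of the 8 was called, and 4 of 12832 genes were (0.0312%; 13.2% at an unadjusted p under 0.05). Grhl2 was listed at 0 in both PDAC primaries, against 0.86 and 2.62 RPKM in BC primaries, and was not tested. Of the 10 genes, 1 was higher without overlap (Elf3) and 1 lower (Grhl2, not tested). Of the 8 tested members, 1 was higher and 0 lower in this way, beside 15.7% and 31.5% of tested genes. The median difference was 1.11, beside -0.31 over all tested genes. Without PDAC primary 5 the median was -1.18: Cldn4 was at -3.75, Cldn3 at -3.41, Cdh1 at -2.59, Cldn7 at -1.21, Ocln at -1.16 and Epcam at -0.98, with no member called. Without PDAC primary 1, where PDAC primary 5 alone stands for its group and the other groups supply the spread, 6 members were called higher, among 792 genes called. These included Elf3 (6.60; limma adjusted p = 0.0307), Cldn7 (5.55) and Cldn3 (4.43).

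**Figure D4:**
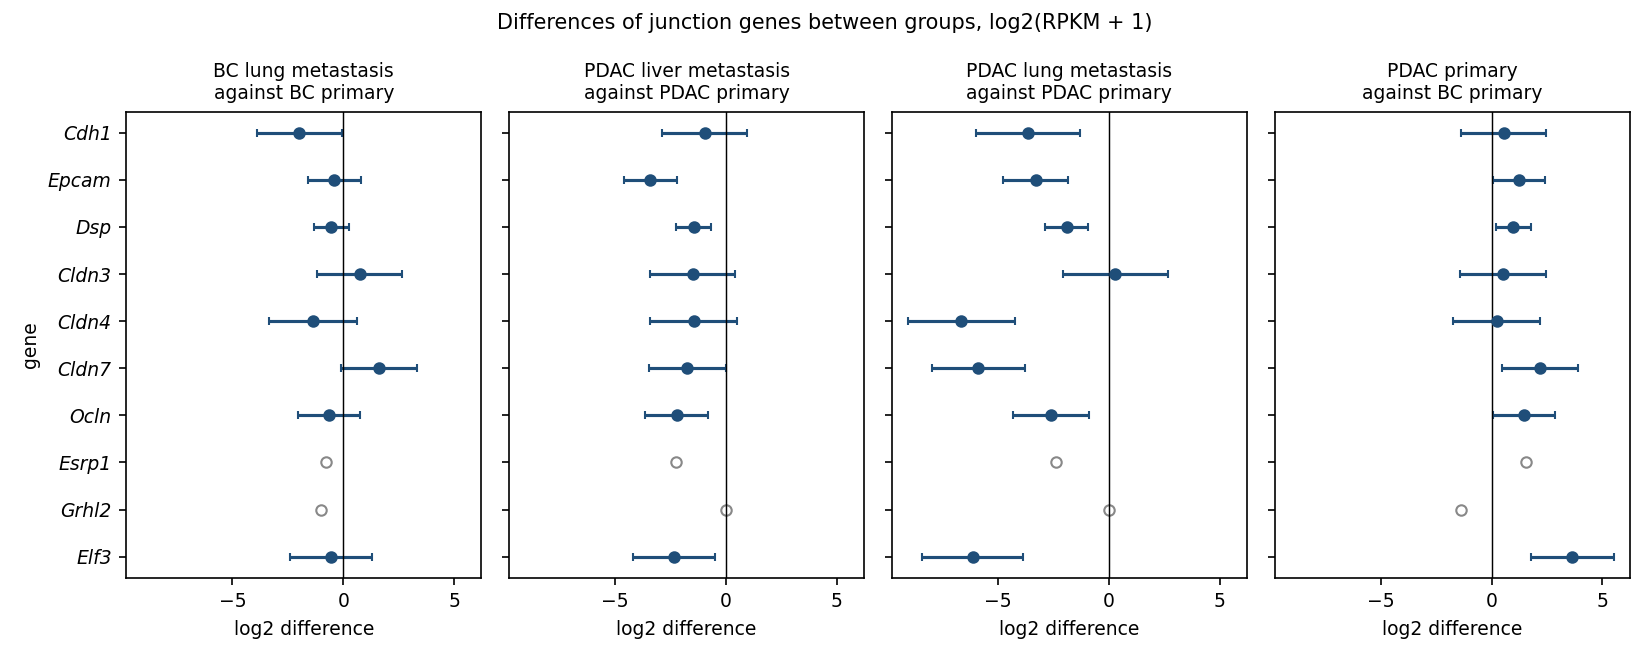
Log2 difference on the log2(RPKM + 1) scale (x axis) for each gene (y axis) in 4 comparisons; filled points are the 8 tested genes with the standard error as a bar, and open points are Esrp1 and Grhl2, which were not tested. No difference was called by limma; Cldn7 and Cldn4 lie on opposite sides of 0 in the BC panel (1.62 and -1.37).

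The metastasis effect was compared between the models directly. The PDAC liver effect minus the BC lung effect was -3.37 ± 2.44 for Cldn7 (limma adjusted p = 0.874), -3.00 ± 1.68 for Epcam (limma adjusted p = 0.874) and -0.08 ± 2.78 for Cldn4 (limma adjusted p = 0.996). No member was called, nor was any of the 12832 genes (0%; 4.13% at an unadjusted p under 0.05, none of the 8 members). The models were thus not shown to differ in how the junction genes change. Tumour model and metastatic organ cannot be told apart in this comparison.

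Other genes of the same structures were read from 5 lists of 62 genes, of which 60 were in the table and 45 were tested. Limma called 0 of the 45 in each comparison. In PDAC liver metastases against PDAC primaries, 3 of the 45 were at an unadjusted limma p under 0.05, as were 6.4% of all tested genes. Of the 45 differences, 37 were negative, as were 45.4% of all tested genes (median -1.28, beside 0.08). This too rested on PDAC primary 5: without it, 16 of 45 were negative (median 0.27), and without PDAC primary 1, 39 were (median -3.20). Of all tested genes, 55.2% were negative without PDAC primary 5 (median -0.12) and 34.9% without PDAC primary 1 (median 0.555). Muc1, for example, was at 14.7 and 11.5 RPKM in liver metastases, against 9.30 and 635 RPKM in primaries 1 and 5. Among 18 tight junction genes, 15 were negative, with Cldn6, a claudin of embryonic epithelium, lowest (-3.24) and Cldn1 highest (1.28). Among 10 surface proteins 7 were negative, with the mucin gene Muc1 lowest (-2.53). The regulator list, 5 tested genes, was negative in 5, from Ovol2 (-0.92) to Ap1m2 (-4.56). Ap1m2 encodes the adaptor subunit that sorts proteins to the basolateral membrane, and was listed at 0 and at 3.43 RPKM in liver metastases, against 14.1 and 163 RPKM in primaries (limma adjusted p = 0.43). Of 4 desmosome genes, the plakophilin gene Pkp3 was lowest (-4.42) and Pkp2 highest (0.05). Of 8 adherens junction genes, the nectin gene Pvrl2 was lowest (-1.74) and the vinculin gene Vcl highest (0.69).

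In BC lung metastases against BC primaries, 36 of the 45 were negative, as were 63.1% of all tested genes (median -0.39, beside -0.29). The tight junction scaffold gene Tjp3 was highest of its list (1.65), at 2.73 and 4.39 RPKM in lung metastases, against 0.153 and 0.761 RPKM in primaries. Cldn12 was lowest (-1.61). The plakoglobin gene Jup (-2.61) and Pkp3 (-2.75) were lowest of the adherens junction and desmosome lists, and Mllt4 (0.01) and Perp (0.17) highest. Pkp3 was at 21.3 RPKM in lung metastasis 4 and 0.00592 RPKM in lung metastasis 6, against 31.8 and 29.8 RPKM in primaries, so its low value came from the same library as that of Cdh1. The regulators ranged from Rab25 (-0.23) to Klf5 (-0.01), and of the surface proteins the protease gene St14 was lowest (-2.36).

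In the PDAC lung metastasis against PDAC primaries, 39 of the 45 were negative, as were 63.0% of all tested genes (median -1.90, beside -0.50), and 9 were at an unadjusted p under 0.05, beside 13.8% of all genes. Without PDAC primary 5, 24 were negative, as were 64.4% of all tested genes. The lowest of each list were Cldn6 (-5.27), the catenin gene Ctnnd1 (-2.01), Perp (-6.17; limma adjusted p = 0.0764), Ap1m2 (-5.64) and Muc1 (-6.25). The highest of the junction, desmosome and regulator lists were Tjp1 (0.06), Vcl (0.01), the cornified envelope gene Ppl (1.52) and Klf5 (-0.84). In PDAC against BC primaries, 29 of the 45 were positive, as were 41.3% of all tested genes (median 0.46, beside -0.31). At an unadjusted limma p under 0.05, 7 of the 45 were higher and 4 lower, beside 483 and 1210 of the 12832 tested genes. Without PDAC primary 5, 12 of the 45 were positive, as were 48.2% of all tested genes. The highest were Cldn6 (5.16), Pvrl4 (0.46), Pkp3 (1.14), Ap1m2 (4.91) and Muc1 (5.11), and the lowest Cldn12 (-1.98), Vcl (-2.08), Pkp2 (-1.96), Klf5 (-0.41) and the protease inhibitor gene Spint1 (-2.06). Cldn6 was at 5.66 and 221 RPKM in PDAC primaries, against 0.0871 and 0.0608 RPKM in BC primaries (limma adjusted p = 0.253). Its groups did not overlap, whereas those of Cldn3, Cldn4 and Cldn7 did.

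Over the 9 libraries the tested members varied together, as a description that rests on few libraries sharing a wide range of depth and cell content. Pearson r over the 28 pairs of the 8 genes had a median of 0.78 (0.38 to 0.91). Without PDAC primary 5 the median was 0.38 (-0.61 to 0.77), and Elf3 and Cldn3 had the lowest r. Cldn3 was the member least like the others (r = 0.60 with their mean profile) and Ocln the most (0.94). By rule, the non-member genes most like the mean profile of the members were Cblc (r = 0.963), Ppp2r5c (0.959), Fnbp1l (0.953), Setmar (0.950) and Aplp1 (0.949). Cblc, a ubiquitin ligase gene, was listed at 0 in the PDAC lung metastasis, at 7.13 and 3.58 RPKM in PDAC liver metastases, at 1.20 and 173.5 RPKM in PDAC primaries, at 14.3 and 2.92 RPKM in the BC lung metastases, and at 11.1 and 8.03 RPKM in BC primaries. Its r was 0.913 over the 8 libraries without PDAC primary 5, and those of the other 4 genes were 0.692 to 0.862.

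The mesenchymal list was read beside the junction genes, since carcinoma cells can trade one programme for the other. Snai1 and Twist1, genes of that list that encode repressors of epithelial genes, were high in BC libraries that also held Epcam and claudins. Snai1 was at 51.3 and 46.9 RPKM in the BC lung metastases 4 and 6 and at 52.5 and 19.9 RPKM in BC primaries 1 and 5. Twist1 was at 58.2 and 53.7 RPKM in the BC lung metastases and 47.4 and 30.0 RPKM in BC primaries. In PDAC primary 5, the library with the highest junction levels, Snai1 was listed at 0, Twist1 was at 0.0198 RPKM and Zeb2 at 0.0114 RPKM, while the intermediate filament gene Vim was at 219 RPKM. Of tested genes 1259 to 2217 and 4222 to 9659 bases long, 33.1% and 34.6% were at 0 in PDAC primary 5. In PDAC primary 1 Snai1, Twist1, Zeb2 and Vim were at 0.446, 7.69, 1.32 and 173 RPKM. Fn1, the fibronectin gene of the same list, went the other way: it was at 115 RPKM in PDAC primary 5, against 17.2 to 41.5 RPKM in the other 4 PDAC libraries. PDAC liver metastasis 5 had the highest Snai1 level, 65.6 RPKM, and leukocytes and stromal cells also use these genes. Zeb1 was at most 0.0185 RPKM in any library.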

How the data were processed

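Cells sorted for YFP or GFP were profiled with a SMART-seq v4 and Nextera XT protocol, per the labels' protocols, and the deposited table holds 1 value per gene and library. Its values are RPKM by the authors, although the table is named for another unit: column sums ranged from 288171 to 992077, and low values times gene length were whole multiples of 1 step per library (within 0.02, up to 20 reads) for 62.8 to 74.4% of values, against 5.64 to 6.41% without length. Lengths came from GENCODE for 93.0% of genes. Per the submitters' processing notes the authors used mm9, and the aligner and counter are not given in the sources used here. Raw counts were not used here, so no interval for counting error is given.

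The 10 members and the lists were chosen with earlier results of these data known. Members were named throughout, and of each other list the tested genes with the highest and lowest difference per comparison, and the 5 non-member genes averaging at least 5 RPKM that were most like the members' mean standardised profile. Part of what this rule selects is not reported here. Other genes named with per-library values (Tjp3, Ap1m2, Pkp3, Cldn6 and marker genes) come from these lists. Differences are on the log2(RPKM + 1) scale, which understates those of low genes. The 12832 genes that reached 1 RPKM in 2 or more of 9 libraries were fitted with limma 3.58.1 in R 4.3.3 (trend and robust, with statmod 1.5.0), with 1 mean for each of 5 groups, 4 residual degrees of freedom and a median of 6.17 prior degrees of freedom. P-values are two-sided, Benjamini-Hochberg adjusted over all genes tested, and called under 0.05. The script was tested on simulated data. The 2 libraries of the PDAC primary group, and those of the PDAC liver metastasis group, differ in SIRT6F/F and in age. They were fitted as replicates under 1 mean, so the spread behind the p-values includes that difference. For the BC libraries nothing in the labels states how the replicates were kept apart beyond their numbers. P-values reflect only how these libraries vary, which may in part be technical.

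PDAC primaries and liver metastases share numbers 1 and 5, and metastases are described as matched to primaries. The deviations of same-numbered libraries from their group means correlated at -0.165 across 12832 genes. The alternatives were another pseudocount, no filter, quantile scaling, rescaling without haemoglobin, limma without moderation options, only the compared libraries, libraries left out, and a block on the number. Counts over the other junction lists without each PDAC primary were added after seeing the data.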

Additional observations from a re-analysis of the deposited data

How the results depend on the processing

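Over the alternatives, 189 counts and medians answering a comparison stayed within 1.5 times (counts) or 2.58 log2 units (medians), and 48 did not. The 2.58 is the SD of the members' median within groups, a wide tolerance. Differences of single members were counted once per gene, comparison and setting. Of these, 56 took the opposite sign, and 559 neither reversed nor changed in call. In BC lung metastases against BC primaries, limma called 9 genes with only the compared libraries; Elf3 was 0.74 under quantile scaling, and without the 3 libraries with the fewest genes Cldn3 was -0.0644 and Elf3 1.34. The median over the 10 genes was -1.71 with a pseudocount of 0.1, against -0.60. Leaving out 1 library gave -1.03 to -0.16 for this median, -0.0644 to 1.55 for Cldn3, -2.43 to 1.34 for Elf3 and -0.97 to 0.16 for Epcam.

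In PDAC liver metastases against PDAC primaries, 1 gene was called, against 2 without trend and robust moderation and 0 under quantile scaling, with only the compared libraries, without the 3 libraries, with a pseudocount of 0.1, without the filter and without haemoglobin. With the replicate block, which takes the numbers as pairing the libraries, 0 genes and 0 members were called (Epcam, limma adjusted p = 0.468), and no call on a member changed; with a crossed block, chosen after seeing the data, 46 genes and 0 members were called. Leaving out 1 library gave 0 to 965 genes and 0 to 5 members called, and a median of -4.99 to 0.51 over the 10 genes; single genes ranged over -4.10 to 2.19 (Cdh1), -5.42 to 2.42 (Cldn3), -5.43 to 2.53 (Cldn4), -5.13 to 1.63 (Cldn7), -4.84 to 0.39 (Ocln) and -5.30 to 0.62 (Elf3). Both ends came from leaving out PDAC primary 1 or 5. Without the 3 libraries, these 6 were 2.19, 2.42, 2.53, 1.63, 0.39 and 0.62.

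For the PDAC lung metastasis, 161 genes were called under quantile scaling, 270 with a pseudocount of 0.1, 251 without the filter, and 0 with only the compared libraries or without trend and robust moderation. Leaving out 1 library gave 0 (without PDAC liver metastasis 5) to 1504 genes, 0 to 6 members, and -3.62 to 4.22 for Cldn3. In PDAC against BC primaries, 13 genes were called under quantile scaling, 43 without the 3 libraries, 1 without moderation options, and 0 with only the compared libraries or no filter. Cldn4 was -0.32 under quantile scaling and -0.32 without haemoglobin, where Cldn3 was -0.0294. Leaving out 1 library gave 1 to 792 genes, 0 to 6 members, a median of -1.18 to 3.88, -2.59 to 3.70 for Cdh1, -0.98 to 3.44 for Epcam, -3.41 to 4.43 for Cldn3, -3.75 to 4.21 for Cldn4, -1.21 to 5.55 for Cldn7 and -1.16 to 4.07 for Ocln. Without the 3 libraries these genes were -2.59, -0.98, -3.41, -3.75, -1.21 and -1.16.

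For the PDAC liver effect minus the BC lung effect, Cldn4 was 0.29 under quantile scaling and 0.00033 with a pseudocount of 0.1. Without the 3 libraries Cldn3, Cldn4, Cldn7 and Ocln were 2.48, 3.35, 0.34 and 0.52. Leaving out 1 library gave 0 to 15 genes, a median of -4.13 to 1.03, -2.13 to 4.16 for Cdh1, -4.06 to 3.90 for Cldn4, -6.16 to 1.68 for Cldn3, -6.75 to 0.0102 for Cldn7, -4.20 to 1.04 for Ocln, -4.75 to 1.17 for Elf3 and -1.90 to 0.0439 for Dsp. Beyond the libraries and samples each setting removes, the cause was not tested. Some low values rest on few reads, such as the estimated 2 each of Cldn4 and Cldn7 in the PDAC lung metastasis. Others do not: Dsp, at 0.887 RPKM in PDAC primary 1, had an estimated 403 reads there.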
